A study of Mus musculus with 7 samples.

Results

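Genes of cholesterol synthesis, uptake and export were examined in ribosome-bound RNA of Kiss1 cells of the AVPV, the anteroventral periventricular nucleus, where kisspeptin neurons take part in the estrogen control of ovulation. The 33 genes were chosen by name, with earlier results of these data known. They were 18 enzymes that build cholesterol, 5 genes of SREBP control, 2 lipoprotein receptors, 3 genes of transport inside the cell, 3 of efflux and 2 of turnover or storage. Each of them matched 1 of the 55384 listed genes, and all 33 passed the low-count filter that left 18282 genes for testing.

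The tested group was the E2 group, with 3 libraries from estradiol-treated female C57BL/6 mice, and it was set against the GDX group, with 4 libraries from ovariectomized females without estradiol. All 7 libraries came from Kiss1Cre+/Rpl22HA+/+ mice, in which Cre made under the Kiss1 gene puts an HA tag on the ribosomal protein RPL22. Ribosomes were pulled down by that tag from AVPV micropunches of 4 pooled brains per library, so each value is an average over animals and describes ribosome-bound RNA. The labels give no age, no dose or duration of estradiol, and do not say whether the E2 females were ovariectomized too. Library totals were 30929883 to 33438199 counts in E2 and 29207544 to 36213127 counts in GDX. Kisspeptin and neuronal markers were present in every library, and so were markers of glia and vessels, whose levels are given beside the efflux genes.

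Brain cells make nearly all of their own cholesterol, because lipoproteins of the blood do not cross the blood-brain barrier. The enzymes are controlled together by the transcription factors SREBP, which leave the endoplasmic reticulum with the escort protein SCAP when sterols are low and are held back by the INSIG proteins when sterols are high. Astrocytes package cholesterol with apolipoprotein E and export it through ABC transporters, and neurons take it up through lipoprotein receptors and clear the excess by hydroxylation.

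Of the 33 genes 2 rose in E2 and none fell, where 3.88% of all tested genes were called, 2.55% as higher and 1.33% as lower (edgeR quasi-likelihood test, Benjamini-Hochberg adjusted p under 0.05). The 2 genes were Dhcr7, the reductase that makes cholesterol from its direct precursor, and Insig1, which encodes a sterol-dependent brake on SREBP. The median log2 fold change, E2 over GDX, was 0.03 over the 33 genes and 0.004 over all tested genes. An unadjusted p under 0.05 was found for 11 of the 33 genes and for 16.8% of all tested genes. The levels of the groups did not overlap for 8 of the 33 genes, 5 higher and 3 lower in E2, where 16.5% of all tested genes did not overlap, 8.43% higher and 8.06% lower. The DESeq2 Wald test called 3 of the 33 genes higher and 2 lower (7.66% of all tested genes called), and limma-voom called 2 higher and none lower (6.07% called).

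**Figure D1:**
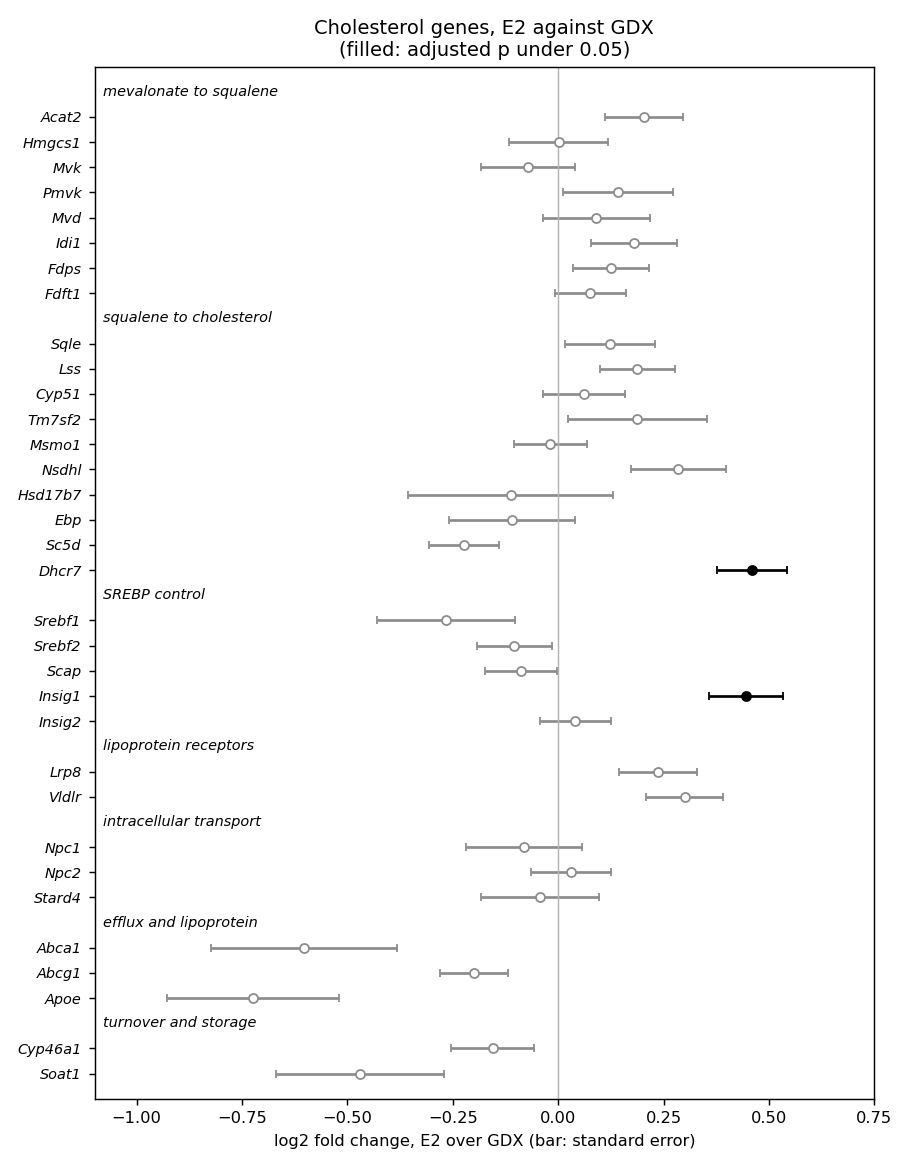
Log2 fold change, E2 over GDX, of each of the 33 cholesterol genes, ordered down the page by pathway step, with the standard error as a bar. Only Dhcr7 (0.46) and Insig1 (0.45) are filled, which marks an edgeR adjusted p under 0.05, and the lowest points are Apoe (−0.72) and Abca1 (−0.60).

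Promoter windows from RefSeq (GRCm38.p6, 250 bases before to 50 bases after each listed start) were found for 27 of the 33 genes, as 40 windows. They are shown for the 2 called genes and for Hmgcs1, the enzyme gene with the highest level, whose window was the only one of the 40 to hold the sterol regulatory element core TCACNCCAC. Capitals mark matches on either strand to that core, to the NF-Y box CCAAT, to the E-box CACGTG and to AGGTCA, the core site bound by estrogen and other nuclear receptors. The window of Dhcr7 is chr7:143829964-143830263, plus strand, and is shown of its 3 windows because it alone holds CCAAT boxes. All 3 windows hold AGGTCA on 1 strand or the other, and 1 of the 2 not shown holds an E-box. The window of Insig1 is chr5:28071162-28071461, plus strand, and that of Hmgcs1 is chr13:119690101-119690400, plus strand.
Dhcr7: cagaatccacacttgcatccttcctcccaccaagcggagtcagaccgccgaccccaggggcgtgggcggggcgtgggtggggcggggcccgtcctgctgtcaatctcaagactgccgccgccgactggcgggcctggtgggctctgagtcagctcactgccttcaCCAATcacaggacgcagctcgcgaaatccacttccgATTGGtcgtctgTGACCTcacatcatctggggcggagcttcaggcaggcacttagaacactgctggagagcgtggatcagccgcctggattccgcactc
Insig1: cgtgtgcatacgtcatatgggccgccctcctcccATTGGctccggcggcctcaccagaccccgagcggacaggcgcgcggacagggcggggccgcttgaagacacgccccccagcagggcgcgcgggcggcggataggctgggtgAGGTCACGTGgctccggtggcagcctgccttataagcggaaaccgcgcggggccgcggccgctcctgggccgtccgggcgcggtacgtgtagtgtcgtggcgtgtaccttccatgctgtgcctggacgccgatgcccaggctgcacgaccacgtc
Hmgcs1: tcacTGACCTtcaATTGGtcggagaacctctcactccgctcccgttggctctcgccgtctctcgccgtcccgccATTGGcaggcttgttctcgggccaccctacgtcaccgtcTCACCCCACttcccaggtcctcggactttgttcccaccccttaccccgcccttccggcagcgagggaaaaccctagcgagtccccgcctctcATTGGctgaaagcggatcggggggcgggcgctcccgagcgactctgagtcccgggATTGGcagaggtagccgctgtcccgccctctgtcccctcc

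The Dhcr7 window shown held a CCAAT box on each strand and an AGGTCA match on the minus strand. The Insig1 window held 1 CCAAT box. In Insig1 the AGGTCA match and the E-box overlap, and they read as AGGTCACGTG. The NF-Y box was present in 23 of the 40 windows (57.5%) and in 37.4% of the 32851 promoter windows of all genes. The Sp1 box GGGCGG, also counted on both strands, was in 28 of the 40 windows (70.0%), against 35.7% of all windows. The E-box was in 7 windows (17.5%, against 7.15% of all), AGGTCA in 6 of the 40 (against 16.3% of all) and the sterol element core in 1 (2.5%, against 1.24%). These matches describe the letters of the windows, and several genes have more than 1 window. Where windows overlap, the same site counts in each of them, as for the E-box of Scap and an AGGTCA match of Dhcr7. Counted by gene, the E-box was found in 6 and AGGTCA in 4 of the 27 genes with a window.

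Cholesterol synthesis begins with the mevalonate steps, and none of their 8 genes was called. Hmgcs1, which encodes the synthase that makes HMG-CoA, held 236, 249 and 226 CPM in the E2 libraries, against 250, 211, 197 and 287 CPM in the GDX libraries. CPM is the count scaled to a common library size. The E2 libraries all lay within the range of the GDX libraries, and the log2 fold change was 0.00 ± 0.12 (SE, adjusted p = 0.998). Acat2, the cytosolic thiolase gene that feeds this step, averaged 71.9 ± 4.78 CPM in E2 (SD, n = 3, as for E2 below) and 62.5 ± 5.49 CPM in GDX (SD, n = 4, as for GDX below), and it was not called (log2 fold change 0.20 ± 0.09, adjusted p = 0.291).

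The kinases and the decarboxylase that turn mevalonate into the isoprene unit were not called either. Mvk averaged 23.0 CPM in E2 and 24.1 CPM in GDX, and Mvd averaged 22.8 CPM in E2 and 21.4 CPM in GDX. Pmvk averaged 50.1 ± 3.16 CPM in E2 and 45.4 ± 8.57 CPM in GDX, with 58.2 CPM in GDX replicate 3 and 40.7 to 41.7 CPM in GDX replicates 1, 2 and 4. The isomerase gene Idi1 averaged 51.3 CPM in E2 and 45.2 CPM in GDX. Fdps, which joins isoprene units to farnesyl diphosphate, averaged 88.7 and Fdft1, the squalene synthase gene, 114 CPM in E2, against 81.3 and 108 CPM in GDX. The adjusted p values of these 6 genes lay between 0.425 for Idi1 and 0.827 for Mvk. The summed level of the 8 genes was 636 to 694 CPM in the E2 libraries and 597 to 688 CPM in the GDX libraries.

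The 10 genes from squalene to cholesterol included the 1 enzyme gene that was called. Dhcr7 (ENSMUSG00000058454, chromosome 7, 143823145 to 143848410, plus strand, GRCm38) held 51.9, 51.6 and 56.2 CPM in the E2 libraries, against 40.0, 37.8, 37.0 and 39.9 CPM in the GDX libraries. Every E2 library lay above every GDX library. Dhcr7 rose 1.38-fold in E2, with a log2 fold change of 0.46 ± 0.08 (edgeR adjusted p = 0.00819). The call was lost without E2 replicate 3 (log2 fold change 0.42, adjusted p = 0.0533) and was kept in the other 18 alternatives, with log2 fold changes of 0.40 to 0.55.

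Sc5d encodes the desaturase that makes the substrate of the Dhcr7 enzyme, and its levels lay in the opposite direction. It held 49.0, 50.3 and 50.2 CPM in the E2 libraries, against 58.4, 58.3, 53.8 and 62.4 CPM in the GDX libraries. The groups did not overlap, but Sc5d was not called (log2 fold change −0.22 ± 0.08, adjusted p = 0.190). The ratio of Dhcr7 to Sc5d within each library, which no scaling factor changes, was 1.06, 1.02 and 1.12 in E2, against 0.686, 0.648, 0.689 and 0.639 in GDX. This ratio was chosen after the values were seen and has no test.

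**Figure D2:**
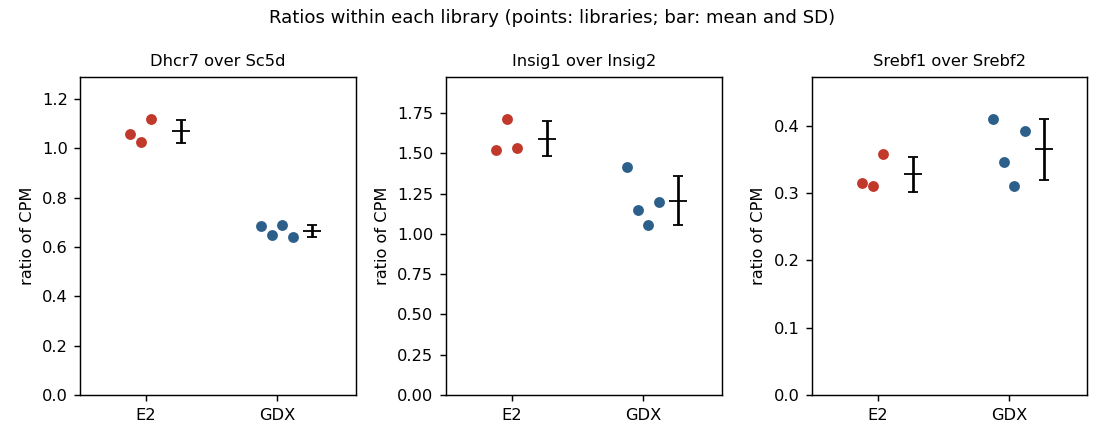
Ratios of CPM of neighbouring or related genes within each library, with the mean and SD beside the points (3 E2 and 4 GDX libraries). The ratio of Dhcr7 to Sc5d averaged 1.07 in E2 and 0.665 in GDX, that of Insig1 to Insig2 averaged 1.59 in E2 and 1.20 in GDX, and the ratio of Srebf1 to Srebf2 overlapped between the groups.

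A pair of further enzyme genes did not overlap between the groups, both higher in E2. Nsdhl, the dehydrogenase gene of sterol demethylation, held 31.7, 38.2 and 31.7 CPM in the E2 libraries, against 25.6, 29.9, 25.6 and 30.3 CPM in the GDX libraries. Lss, the lanosterol synthase gene, held 41.5, 39.1 and 43.3 CPM in the E2 libraries, against 37.2, 34.8, 34.4 and 38.5 CPM in the GDX libraries. The gap between the groups was narrow in both genes. Neither passed, with log2 fold changes of 0.28 ± 0.11 for Nsdhl (adjusted p = 0.219) and 0.19 ± 0.09 for Lss (adjusted p = 0.318).

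The other genes of these steps overlapped between the groups. Sqle, the squalene epoxidase gene and first of the 10 by mean CPM, held 97.5, 106 and 101 CPM in the E2 libraries, against 89.5, 87.0, 82.1 and 114 CPM in the GDX libraries. The highest GDX library of Sqle, GDX replicate 4, lay above all E2 libraries, and the log2 fold change was 0.12 ± 0.11 (adjusted p = 0.643). Cyp51, the lanosterol demethylase gene, averaged 88.6 CPM in E2 and 85.0 CPM in GDX, and Msmo1, a methylsterol oxidase gene, averaged 71.9 CPM in E2 and 72.8 CPM in GDX. Ebp, a sterol isomerase gene, averaged 14.3 CPM in E2 and 15.5 CPM in GDX. Tm7sf2, a sterol reductase gene, averaged 12.8 CPM in E2 and 11.2 CPM in GDX. Hsd17b7, a ketoreductase gene, had the fewest counts of the 33 genes, with 7.03 ± 0.794 CPM in E2 and 7.60 ± 2.20 CPM in GDX, and its lowest count in a library was 174.

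Over all 18 enzyme genes the log2 fold change was above 0 for 13, with a median of 0.107, and for 11 to 12 under the other 3 scalings, with medians of 0.045 to 0.1. The lowest enzyme median, 0.045, was with library sizes alone, where the median over all tested genes was −0.057, against 0.004 in the fit reported. The summed CPM of the 18 genes was 1106, 1175 and 1117 in the E2 libraries, against 1056, 1020, 1019 and 1187 in the GDX libraries. GDX replicate 4 was above every E2 library, so the sums of the groups overlapped.

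**Figure D3:**
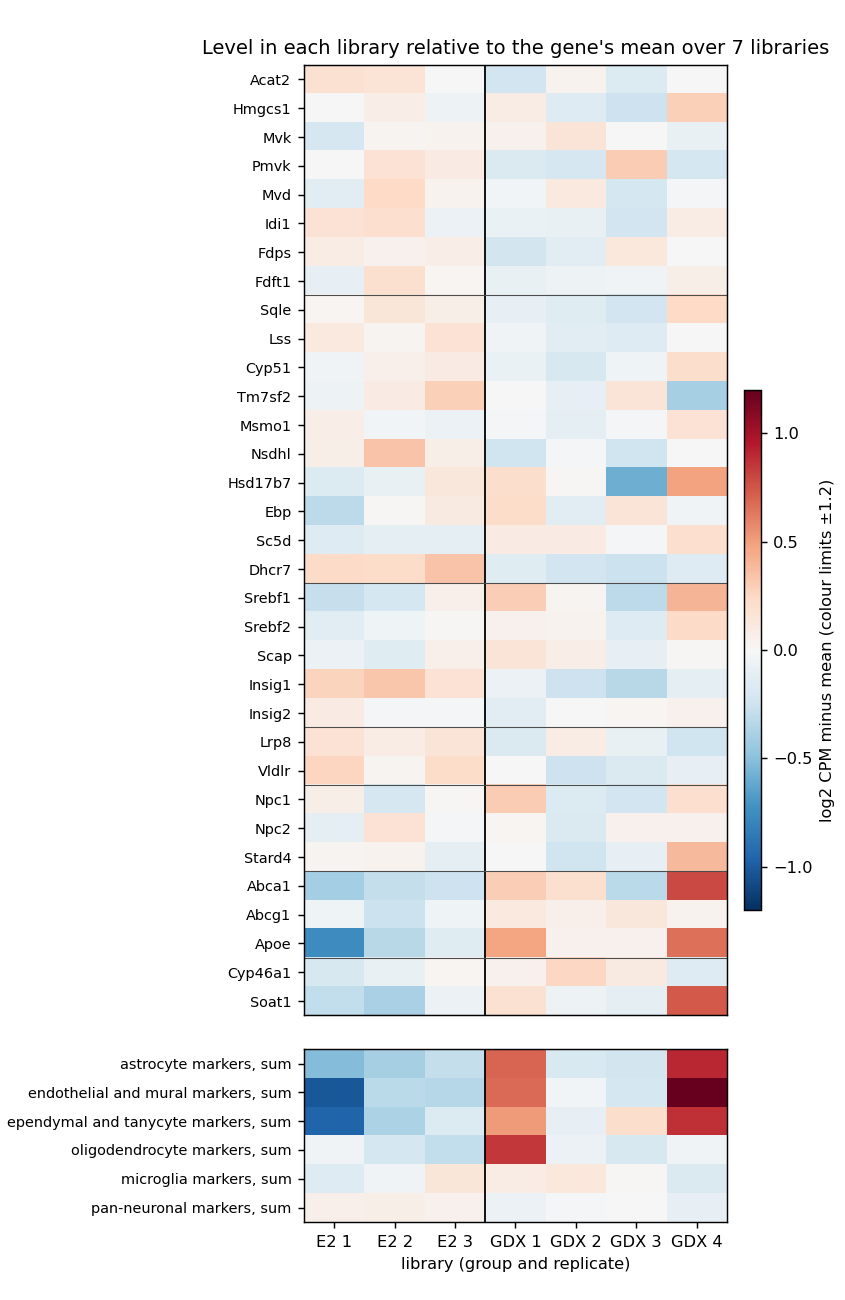
Log2 CPM of each cholesterol gene in each library minus the mean of that gene over the 7 libraries, E2 libraries left and GDX libraries right, with the summed CPM of 6 marker lists treated the same way in the lower panel. Dhcr7 and Insig1 are high in each E2 library, and Apoe, Abca1 and Soat1 are highest in GDX replicate 4, as are the astrocyte and endothelial sums.

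Insig1 was the 1 called gene among 5 of SREBP control. Insig1 (ENSMUSG00000045294, chromosome 5, 28071363 to 28078662, plus strand, GRCm38) held 84.1, 88.0 and 78.6 CPM in the E2 libraries, against 66.6, 59.0, 55.5 and 64.3 CPM in the GDX libraries. All E2 libraries lay above all GDX libraries. Insig1 rose 1.36-fold in E2, with a log2 fold change of 0.45 ± 0.09 (edgeR adjusted p = 0.0131). The call was lost without E2 replicate 1 (0.44, adjusted p = 0.0739) or E2 replicate 2 (0.41, adjusted p = 0.0799) and at a threshold of 0.01, and it was kept in the other 16 alternatives.

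Insig2, the related gene whose protein also holds SCAP in the endoplasmic reticulum, averaged 52.7 ± 2.29 CPM in E2 and 51.2 ± 2.87 CPM in GDX (log2 fold change 0.04 ± 0.08, adjusted p = 0.877). The ratio of Insig1 to Insig2 was 1.52, 1.715 and 1.53 in the E2 libraries, against 1.41, 1.15, 1.06 and 1.20 in the GDX libraries. The lowest E2 ratio was thus above the highest GDX ratio, and this ratio too was chosen after the values were seen.

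Srebf2, which encodes the SREBP that mainly drives cholesterol enzymes, held 195, 207 and 217 CPM in the E2 libraries, against 222, 220.5, 193 and 252 CPM in the GDX libraries, and the groups overlapped (−0.10 ± 0.09, adjusted p = 0.636). Srebf1, whose products mainly drive fatty acid synthesis, averaged 67.7 ± 8.62 CPM in E2 and 81.5 ± 17.2 CPM in GDX (−0.27 ± 0.16, adjusted p = 0.474). Scap averaged 100.2 CPM in E2 and 106.5 CPM in GDX (−0.09 ± 0.09, adjusted p = 0.685).

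The lipoprotein receptor genes Vldlr and Lrp8, whose products bind apolipoprotein E and are also the receptors for reelin, were both at higher values in E2 and neither was called. Vldlr held 82.8, 70.7 and 80.5 CPM in the E2 libraries, against 69.4, 58.1, 61.3 and 64.6 CPM in the GDX libraries. The groups did not overlap, though E2 replicate 2 lay close to GDX replicate 1. The log2 fold change was 0.30 ± 0.09 (adjusted p = 0.104), and the gene was called by the DESeq2 Wald test (0.29, adjusted p = 0.0495) and without GDX replicates 1 and 4 (0.38, edgeR adjusted p = 0.0436). Lrp8 averaged 65.2 ± 2.08 CPM in E2 and 55.3 ± 5.56 CPM in GDX (0.24 ± 0.09, adjusted p = 0.213).

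**Figure D4:**
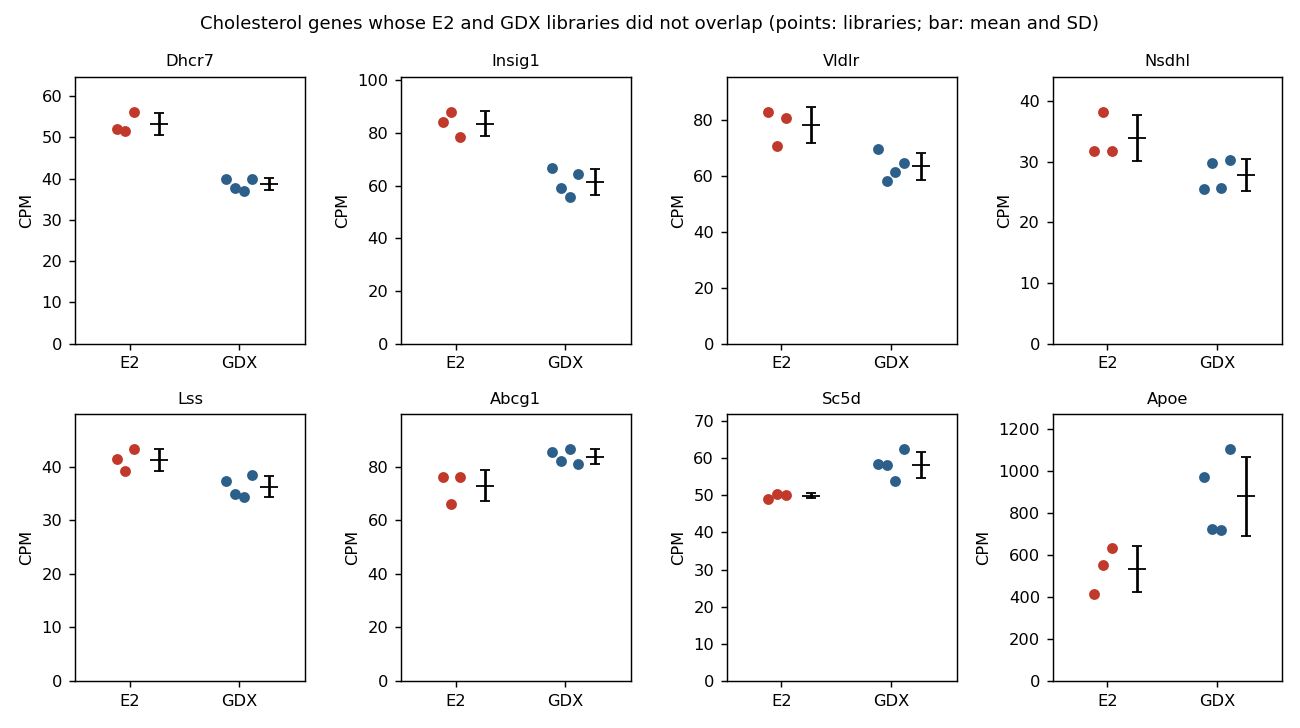
CPM per library of the 8 cholesterol genes whose E2 and GDX libraries did not overlap, with the mean and SD beside the points (3 E2 and 4 GDX libraries). Dhcr7, Insig1, Vldlr, Nsdhl and Lss lie higher in E2, and Abcg1, Sc5d and Apoe lower, of which Dhcr7 and Insig1 passed the test.

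Transport of cholesterol inside the cell was represented by 3 genes, none of them called. Npc2, which encodes the soluble lysosomal protein that takes up freed cholesterol, held 57.4, 69.9 and 61.4 CPM in the E2 libraries, against 62.8, 55.1, 64.3 and 64.2 CPM in the GDX libraries. Npc1, its membrane partner gene, averaged 51.5 CPM in E2 and 54.4 CPM in GDX, and Stard4, a gene of a cytosolic sterol carrier, averaged 30.5 CPM in E2 and 31.4 CPM in GDX. Log2 fold changes of the 3 genes lay between −0.08 and 0.03, with adjusted p values of 0.843 for Npc1, 0.920 for Npc2 and 0.924 for Stard4.

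All 3 efflux genes had values below 0 for the log2 fold change, and none passed. Apoe, the gene of the main apolipoprotein of the brain, held 414, 553 and 632 CPM in the E2 libraries, against 971, 723, 722 and 1105 CPM in the GDX libraries. The E2 libraries all lay below the GDX libraries. The log2 fold change was −0.72 ± 0.20 (adjusted p = 0.125), and the DESeq2 Wald test called it (adjusted p = 0.000287). Abcg1, a sterol exporter gene, held 76.4, 66.2 and 76.3 CPM in the E2 libraries, against 85.6, 82.1, 86.6 and 81.0 CPM in the GDX libraries, again without overlap. Its log2 fold change was −0.20 ± 0.08 (adjusted p = 0.230).

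Abca1, the exporter gene that lipidates apolipoprotein E, averaged 20.8 ± 1.23 CPM in E2 and 31.6 ± 9.97 CPM in GDX, where GDX replicate 4 held 44.8 and GDX replicate 3 held 20.6 CPM (−0.60 ± 0.22, adjusted p = 0.202). Abca1 was called as lower by the DESeq2 Wald test (adjusted p = 0.0456), without the low-count filter (adjusted p = 0.000199) and without GDX replicate 3 (−0.76, adjusted p = 0.0182), while without GDX replicate 4 its log2 fold change was −0.39 (adjusted p = 0.190). Soat1, which makes cholesteryl esters for storage, averaged 18.6 ± 2.15 CPM in E2 and 25.8 ± 7.58 CPM in GDX (−0.47 ± 0.20, adjusted p = 0.264). Without the low-count filter Soat1 was called as lower (−0.48, adjusted p = 0.0154), and without GDX replicate 4 its log2 fold change was −0.25 (adjusted p = 0.386). Cyp46a1, the hydroxylase gene through which neurons dispose of cholesterol, held 95.5, 103 and 111 CPM in the E2 libraries, against 113.5, 130, 118 and 97.9 CPM in the GDX libraries. The groups of Cyp46a1 overlapped (−0.16 ± 0.10, adjusted p = 0.485).

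Sums of astrocyte and of endothelial and mural markers were highest in GDX replicates 1 and 4, as were Apoe, Abca1 and Soat1 but not Abcg1, which was lowest of the GDX libraries in GDX replicate 4. The summed CPM of 15 astrocyte markers was 1552 to 1825 in the E2 libraries and 1912 to 4173 in the GDX libraries, with 3600 in GDX replicate 1 and 4173 in GDX replicate 4. The 12 endothelial and mural markers summed to 192 to 310 CPM in E2 and 337 to 923 CPM in GDX. All 15 astrocyte and all 12 endothelial and mural markers had log2 fold changes below 0, none of them was called, and none was at 0 in any library. Log2 fold changes of the astrocyte markers ran from −2.365 for Gfap to −0.011 for Ntsr2, with a median of −0.539. Gfap, an astrocyte filament gene, averaged 182 CPM in E2 and 939 CPM in GDX. It held 1323 CPM in GDX replicate 1 and 1765 CPM in GDX replicate 4, a large part of the astrocyte sums there. Slc1a2, a glutamate transporter gene, averaged 354 CPM in E2 and 453 CPM in GDX. The endothelial and mural genes Rgs5 and Flt1 averaged 58.5 and 46.7 CPM in E2, against 125 and 96.7 CPM in GDX.

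With a score of astrocyte, oligodendrocyte, microglial and endothelial markers as a covariate, the log2 fold change was −0.25 for Apoe (adjusted p = 0.678), −0.10 for Abca1 (0.958) and −0.07 for Soat1 (0.973), but −0.23 for Abcg1 (0.616) and −0.24 for Cyp46a1 (0.674). Without GDX replicates 1 and 4, left out after the data were seen, it was −0.44 for Apoe (adjusted p = 0.275), −0.27 for Abca1 (0.497) and −0.16 for Soat1 (0.709), and −0.21 for Abcg1 (0.328) and −0.27 for Cyp46a1 (0.146). Dhcr7 and Insig1 stayed called in both fits, at 0.55 (adjusted p = 0.0465) and 0.59 (0.0260) with the covariate and at 0.50 (0.00934) and 0.54 (0.00274) without the 2 libraries. The score was 4.78 to 5.05 in E2 and 5.06 to 5.72 in GDX on the log2 scale, so the groups did not overlap in it and the part of the score cannot be told apart from that of treatment. In pull-downs from pooled tissue, fewer cells of a type, less RNA per cell and less untagged RNA carried along cannot be told apart.

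**Figure D5:**
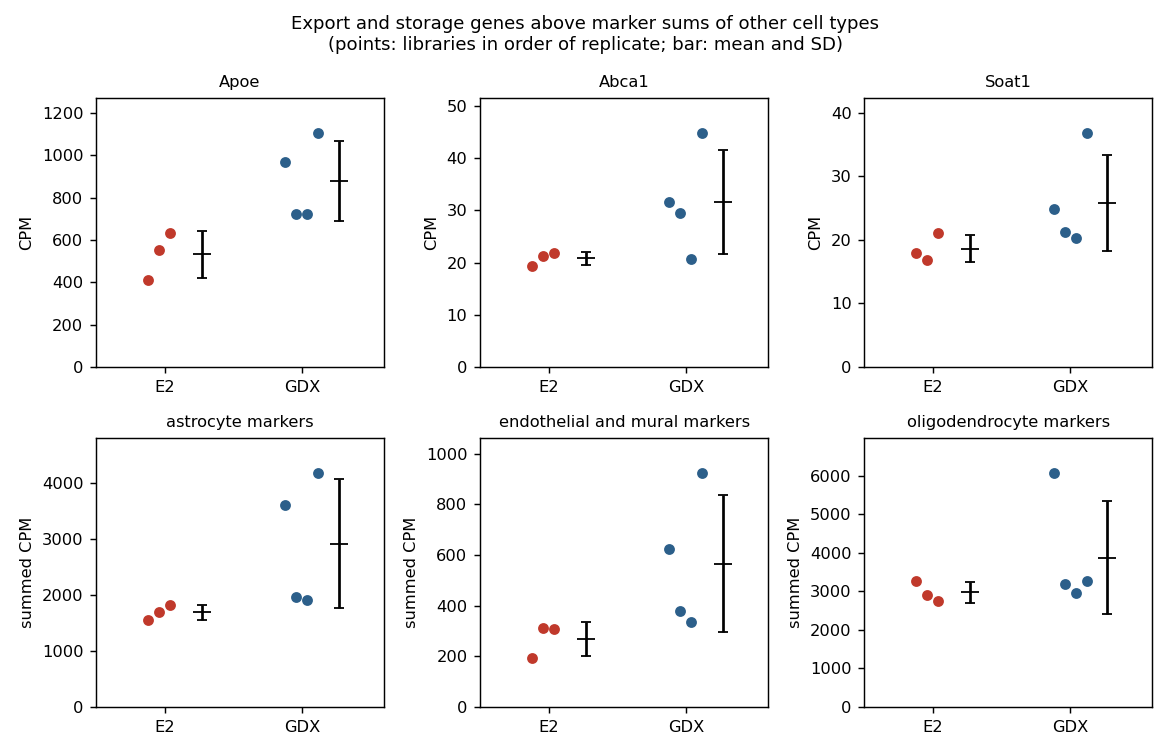
CPM per library of Apoe, Abca1 and Soat1 in the upper row and summed CPM of 3 marker lists in the lower row, with points in the order of the replicates and the mean and SD beside them (3 E2 and 4 GDX libraries). GDX replicates 1 and 4, the outer GDX points, are the highest 2 for Apoe, Abca1, Soat1 and the astrocyte and endothelial sums, and GDX replicate 1 stands alone for oligodendrocyte markers.

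Oligodendrocytes make much cholesterol for myelin, and their 15 markers summed to 2749 to 3274 CPM in E2 and 2952 to 6067 CPM in GDX, with Mbp at 1136 CPM in E2 and 1590 CPM in GDX. None of them was called, nor was any of the 12 microglial markers (152 to 187 CPM in E2, 150 to 185 CPM in GDX), among them Csf1r (33.5 CPM in E2 and 32.2 CPM in GDX). Of 9 tested ependymal and tanycyte markers 1 fell in E2, where 1.33% of all tested genes fell. It was Rarres2 (10.4 CPM in E2 and 21.3 CPM in GDX), which overlaps Lrrc61 on the opposite strand. Foxj1 averaged 14.7 CPM in E2 and 30.7 CPM in GDX. The 9 markers had a median log2 fold change of −0.876. An unadjusted edgeR p under 0.05 was found for 8 of them, where 16.8% of all tested genes had one. Of 12 pan-neuronal markers, led by Map2 and Eno2 (1227 and 1086 CPM in E2, 1047 and 1008 CPM in GDX), 1 rose, Elavl4 (163 CPM in E2 and 115 CPM in GDX), where 2.55% of all tested genes rose. Of 6 AVPV kisspeptin cell markers 4 rose in E2: Kiss1 (415 CPM in E2 and 66.5 CPM in GDX), Pgr (117 and 28.3 CPM in the same order), Th (551 and 297 CPM) and Gad2 (983 and 727.5 CPM), where 2.55% of all tested genes rose. All 779 bp of Kiss1 exons are shared with Gm28040 on the same strand, so the level of Kiss1 is uncertain. The part of other cell types in the levels of the cholesterol genes was not tested beyond the fits above.

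Other genes of the pathway gave 1 call among 15 tested genes of sterol synthesis and SREBP processing, where 3.88% of all tested genes were called. Of the 15 genes 12 had log2 fold changes below 0. The groups did not overlap for 4 of the 15, all lower in E2, where 8.06% of all tested genes were lower without overlap. Por, which encodes the reductase that passes electrons to Cyp51 and Sqle enzymes, held 155, 152 and 154 CPM in the E2 libraries, against 183, 203, 216 and 220.5 CPM in the GDX libraries. All E2 libraries lay below all GDX libraries, and Por fell (log2 fold change −0.42 ± 0.08, edgeR adjusted p = 0.00957). None of 24 other genes of sterol uptake, transport and efflux was called by edgeR, and 6 of them had an unadjusted p under 0.05, where 16.8% of all tested genes did. Of 16 fatty acid synthesis genes driven by SREBP none rose and 2 fell, with a list median of −0.13, where 1.33% of all tested genes fell and the median over all of them was 0.004. Fads2, a fatty acid desaturase gene, held 99.99, 102.5 and 125 CPM in the E2 libraries, against 168, 137, 145 and 201 CPM in the GDX libraries (−0.58 ± 0.14, edgeR adjusted p = 0.0457). Acsl3, an acyl-CoA synthetase gene, held 130.0, 134 and 133.5 CPM in the E2 libraries, against 182, 157.5, 166 and 204 CPM in the GDX libraries (−0.42 ± 0.09, edgeR adjusted p = 0.0204). Both genes were highest in GDX replicates 1 and 4, where the astrocyte marker sum was highest, and the part of those cells was not tested. Acsl3 shares 244 bp of exon with Utp14b on the same strand, which leaves its level uncertain.

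Levels of different genes can be set side by side only per length, as CPM per kilobase of annotated exon. That length covers all annotated exons of a gene together, and the transcripts present may be shorter, so the places are approximate. Apoe was the highest of the 33 genes, at 249 in E2 and 412 in GDX, followed by Hmgcs1 with 51.5 in both groups and Cyp46a1 with 31.4 in E2 and 34.9 in GDX. Dhcr7 held 9.15 CPM per kilobase in E2 and 6.65 in GDX and stood at place 22 of 33 in E2 and 24 in GDX, and Insig1 stood at place 7 in E2 and 8 in GDX. Hsd17b7 was the lowest at 1.38 in E2 and 1.49 in GDX.

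Exons of 10 of the 33 genes overlap other listed genes, which unstranded libraries cannot resolve on opposite strands. Fdft1 shares 774 bp with Ctsb (649 CPM in E2 and 678 CPM in GDX), Npc1 shares 511 bp with Rmc1, Cyp51 shares 166 bp with Akap9 and Srebf1 shares 109 bp with Rai1, all on the opposite strand. Tm7sf2 shares 532 bp with Vps51 and Fdps 1124 bp with Gm43738 on the same strand. Acat2 has a close copy, Acat3, that held 1.78 CPM in E2 and 1.76 CPM in GDX. Dhcr7 and Insig1 overlap no other listed gene, and the values of the genes above are uncertain to the extent that counts were divided.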

How the data were processed

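Ribosome-bound RNA was measured in 3 E2 and 4 GDX libraries made from polyadenylated RNA with an unstranded kit, per the labels' protocols. The deposited table holds expected counts per gene and library, and 33.1% of its nonzero values were not whole. Trimmomatic 0.38, STAR 2.6.0a, RSEM 1.3.0 and build mm10 are named in the submitters' processing notes, without roles or order, and the authors' annotation is not given in the sources used here. Symbols, coordinates and exon lengths came from GENCODE vM21 (GRCm38), which matched 55203 of 55384 genes, and 1 listed symbol, Faxdc2, had no match.

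Expected counts were rounded and tested in R 4.3.3 with edgeR 4.0.16 (TMM, robust quasi-likelihood; filterByExpr with a minimum count of 10 and a minimum total of 15), adjusted over all 18282 tested genes. CPM use TMM library sizes, and fold changes a prior count of 0.125. No gene list was tested as a set. The alternatives used limma 3.58.1, DESeq2 1.42.0, other scalings and filters, a replicate block, a covariate and left-out libraries, and edgeR, DESeq2 and limma-voom were tested on simulated data.

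The 33 genes and the other lists were chosen with earlier results of these data known. Each of the 33 genes is named, with its value in each library where it passed, where the groups did not overlap or where it was first in its step by mean CPM. From each other pathway list the called genes are named (up to 5), and from each marker list the 2 with the highest mean CPM and the called genes (up to 3); some marker genes that this rule names are not reported here. Each library is a pool of 4 brains, so p-values measure the spread between pools. Same-numbered E2 and GDX libraries did not deviate together (r of −0.02, −0.038 and −0.055 across genes), so the numbers were not treated as pairs. Depth gave a floor of 3 counts at 0.0818 to 0.101 CPM, for counting error only, and no cholesterol gene came near it. RefSeq promoter windows were searched for the exact letters given.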

Additional observations from a re-analysis of the deposited data

Results flagged for a closer look

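The 4 GDX libraries were examined for a single library apart in 43 groups of values, the 33 cholesterol genes and 10 list sums, by Dixon's ratio of the gap to the range, and chance flags about 1 in 20 groups. Such a library was found in 3. For Pmvk the ratio was 0.943, with 58.2 CPM in GDX replicate 3 and 40.7 to 41.7 CPM in the others. For Npc2 it was 0.838, with 55.1 CPM in GDX replicate 2 and 62.8 to 64.3 CPM in the others. For the summed oligodendrocyte markers it was 0.901, with 6067 CPM in GDX replicate 1 and 2952 to 3260 CPM in the others. Without GDX replicate 3 the log2 fold change of Pmvk was 0.29 (adjusted p = 0.0865).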

How the results depend on the processing

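Among the cholesterol genes 2 rose and none fell in the fit reported, and the count of rises was 1 to 2 and that of falls 0 to 1 with 1 library left out in turn. At an adjusted p under 0.01 1 rose. The DESeq2 Wald test gave 3 rises and 2 falls, and no low-count filter 2 falls. Over all genes 467 rose and 243 fell, or 268 to 591 and 96 to 428 with 1 library left out: 268 and 96 without E2 replicate 1, 311 and 107 without E2 replicate 2, 135 falls without E2 replicate 3, 154 falls without GDX replicate 1 and 428 falls without GDX replicate 3. These counts were 722 and 887 without a low-count filter, 710 and 399 with limma-voom, 219 and 95 with the non-neuronal score as a covariate, and 275 and 85 at an adjusted p under 0.01, and DESeq2 gave 725 falls. The share of rises among calls thus depends on the tool, as it does with library sizes alone (385 and 352). The cause was not tested. The replicate block gave 421 rises and 191 falls over all genes and 2 and 0 among the cholesterol genes, and it changed no call among them. No E2 library has the number of GDX replicate 4, so the block in effect leaves that library out of the comparison.

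Of 627 values of single cholesterol genes under 19 alternatives, 572 kept their direction and side of the threshold, 4 lost the call, 7 gained it and 44 changed sign. Of the 33 genes 16 kept their sign throughout, Dhcr7 and Insig1 among them, and no gene that changed sign was called in any fit. Hmgcs1 had a log2 fold change of −0.0054 with DESeq2 size factors, −0.0153 with upper-quartile factors, −0.0609 with library sizes alone, −0.0053 without a filter, −0.0055 with genes under a mean of 5 CPM removed and −0.0054 with the DESeq2 Wald test. With library sizes alone Cyp51 was at −0.0002, Insig2 at −0.0207 and Npc2 at −0.031. With limma-voom Msmo1 was at 0.024 and Stard4 at 0.0327, and with the replicate block Msmo1 was at 0.039, Hsd17b7 at 0.0779 and Stard4 at 0.1007. With the covariate Pmvk was at −0.0541, Fdps −0.003, Msmo1 0.0206, Hsd17b7 0.4442, Ebp 0.0202, Srebf1 0.1753, Srebf2 0.0688, Scap 0.0266, Insig2 −0.0403, Npc1 0.2478 and Stard4 0.1534. Without GDX replicates 1 and 4 Msmo1 was at 0.0475, Hsd17b7 0.2192, Npc1 0.1578 and Stard4 0.1506.

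With 1 library left out in turn, log2 fold changes ran from −0.1157 to 0.0045 for Mvk, −0.1995 to 0.0077 for Ebp, −0.0722 to 0.1083 for Hmgcs1, −0.0118 to 0.181 for Mvd, −0.0043 to 0.1453 for Fdft1, −0.0533 to 0.0921 for Npc2, −0.062 to 0.0395 for Msmo1, −0.1204 to 0.0994 for Stard4, −0.1595 to 0.0154 for Npc1 and −0.2769 to 0.0501 for Hsd17b7. Standard errors of the 33 genes were 0.08 to 0.24 on the log2 scale. What passed depended on the standard error as well as on the size of the change. Apoe (−0.72 ± 0.20, SE), Abca1 (−0.60 ± 0.22) and Soat1 (−0.47 ± 0.20) were larger in size than Dhcr7 (0.46 ± 0.08) and were not called. With 3 and 4 pools, genes that were not called, at smaller or larger values, cannot be called unchanged. The smallest count of a cholesterol gene in a library was 174.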

Other observations

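GDX replicate 4 held the highest level among the 4 GDX libraries for 17 of the 33 cholesterol genes (51.5%), where it was highest for 31.8% of all tested genes. GDX replicate 3 was the lowest of the GDX libraries for 16 of the 33 genes, where it was lowest for 27.9% of all tested genes. Among the E2 libraries, E2 replicate 1 was the lowest for 16 of the 33 genes, against 31.8% of all tested genes. The highest values of GDX replicate 4 included Hmgcs1 (287 CPM), Srebf2 (252 CPM), Sqle (114 CPM) and Soat1 (36.8 CPM). Its astrocyte marker sum of 4173 CPM was the highest of the 7 libraries. GDX replicate 1, with an astrocyte marker sum of 3600 CPM, was the highest of the GDX libraries for 6 of the 33 genes (18.2%). It was highest for 17.3% of all tested genes. Genes of 1 pathway are not independent of each other, and these counts have no test.

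The tally of cholesterol genes with a log2 fold change above 0 was 18 of 33, 14 with library sizes alone, 23 with the non-neuronal score as a covariate and 22 without GDX replicates 1 and 4. The medians in the same order were 0.03, −0.031, 0.118 and 0.08, where those over all tested genes were 0.004, −0.057, 0.001 and −0.004.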
